A study of Mus musculus with 13 samples.

Results

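Prostaglandin genes were followed through normal crypts and adenomas of the mouse small intestine: the enzymes that make prostaglandin E2 (Ptgs1, Ptgs2, Ptges and Ptges2), the enzyme and the carrier that remove it (Hpgd and Slco2a1) and its 4 receptors (Ptger1, Ptger2, Ptger3 and Ptger4). Members were chosen by name, and each was read on every probe set of the array whose annotation held that gene symbol and no other. Of the 10 genes, 9 were measured, each on 1 probe set, among 19938 genes with such a probe set and 35556 probe sets in all. Ptgs1 was not analysed here.

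The measurements are 13 arrays of the type Affymetrix Mouse Gene 1.0 ST. All 3 groups came from Apc mutant mice that had been crossed to transgenic mice expressing FPs, so the normal crypts carried the Apc mutation and the transgenes as well, and no group was free of either. Normal epithelium lying next to adenomas was labelled FP-high (n = 4) or FP-low (n = 6), and adenomas made up the rest (n = 3). FP is not spelled out in the labels, and the Apc allele, the promoter of the transgenes, the ages and the animal behind each array are not given in the labels. Crypts were taken with glass capillaries, RNA was extracted from isolated crypts and it was amplified before hybridisation. By its title, the series looks for aging-related expression changes ahead of tumour formation. FP-high crypts are set beside FP-low crypts below, but with no ages in the labels no reading of aging was made.

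Prostaglandin E2 is made from arachidonic acid, which phospholipases free from membranes. Cyclooxygenases (Ptgs1 is the constitutive form and Ptgs2 the inducible form) turn it into prostaglandin H2, and prostaglandin E synthases turn that into prostaglandin E2. The carrier encoded by Slco2a1 takes prostaglandins up into cells, where 15-hydroxyprostaglandin dehydrogenase, encoded by Hpgd, inactivates them. The receptors encoded by Ptger2 and Ptger4 raise cAMP, that of Ptger1 raises calcium and that of Ptger3 mostly lowers cAMP. In the intestine, cyclooxygenase inhibitors lower the number of polyps in Apc mutant mice, Ptgs2 is known from stromal and immune cells of polyps as well as from epithelium, and HPGD is known as a gene that is low in many colorectal tumours.

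RefSeq held a promoter in build GRCm38.p6 for 9 of the 10 members, all but Ptger1. Those of Ptgs2, Ptger4 and Hpgd are shown, the 3 members with the largest mean differences between adenoma and normal, in either direction. Given are the 150 bases before the annotated start, and for Ptgs2 and Hpgd a site of 30 bases after it, all 5′ to 3′ on the gene's own strand. Capitals mark matches to a C/EBP motif (TTGCNNAA), a GC box (GGGCGG or its reverse complement), the CCAAT box and a TATA box with the letters TATAAA. In the Ptgs2 site they mark the core of the cAMP response element, TGACG read on the other strand, which overlaps an E-box with the letters CACGTG.
Ptgs2 before the start, chr1:150099881-150100030, plus strand: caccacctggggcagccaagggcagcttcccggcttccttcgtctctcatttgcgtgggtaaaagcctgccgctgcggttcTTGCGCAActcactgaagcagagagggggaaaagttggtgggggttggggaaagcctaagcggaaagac
Ptgs2 site after the start, chr1:150100035-150100064, plus strand: tcaccactaCGTCACGTGgagtccgcttta
Ptger4 before the start, chr15:5244188-5244337, minus strand: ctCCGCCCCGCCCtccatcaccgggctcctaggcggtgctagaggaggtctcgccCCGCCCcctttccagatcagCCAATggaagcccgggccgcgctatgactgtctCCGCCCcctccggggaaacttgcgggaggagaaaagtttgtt
Hpgd before the start, chr8:56294402-56294551, plus strand: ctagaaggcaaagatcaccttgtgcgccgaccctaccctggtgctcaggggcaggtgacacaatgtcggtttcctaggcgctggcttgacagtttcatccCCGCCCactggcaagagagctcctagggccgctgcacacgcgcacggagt
Hpgd site after the start, chr8:56294552-56294581, plus strand: gggcTATAAAagctgctgcggcgtccagac

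Each motif was searched on both strands in the 300 bases around the start, 250 before it and 50 after. In Ptgs2 the C/EBP motif began 69 bases before the start, the cAMP element core 14 bases after it and the E-box 17 bases after it. In Ptger4 the 4 GC boxes began 148, 143, 95 and 42 bases before the start and the CCAAT box 75 before. Ptgs2 was the only member of 9 with the cAMP element core, which 20.8% of all 32851 RefSeq promoters of this length held. The C/EBP motif was found in 2 of the 9 (10.8% of all promoters), the E-box in 2 (7.15%), the GC box in 6 (35.7%), the CCAAT box in 2 (37.4%), the TATA box in 2 (13.6%) and the TCF core CTTTG, which is not capitalised above, in 4 (53.9%). These matches describe letters only, and no reading of factor binding was made here.

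The arrays were alike in their medians, which ran from 4.55 to 4.65 on the log2 scale, but FP-high replicate 1 was unlike the other arrays. Its values had an SD of 1.21 over the probe sets against 1.89 to 2.10 in the other arrays, its median correlation with the others was 0.762 against 0.943 to 0.968, and its epithelial markers averaged 6.53 on the log2 scale against 8.81 to 9.86 elsewhere. The 10 epithelial markers were thus bright in the other 12 arrays, adenomas included. For each measured member the difference between FP-high and FP-low crypts is given with and without FP-high replicate 1. The medians and the counts of higher means over the members and the gene lists include it. Xist, which is transcribed in female cells, read 8.88 to 9.71 in the adenomas, 8.64 in FP-high replicate 4 and 8.74 in FP-low replicate 6, but 2.34 to 3.61 in the other 8 normal arrays, so a high Xist level and the adenoma group largely overlap.

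None of the 9 measured genes passed limma's adjusted p of 0.05 in any comparison. Ptger4 came nearest: its mean was 2.24-fold higher in adenomas than in normal crypts, and all 3 adenomas lay above all 10 normal arrays. Ptgs2 averaged 2.09-fold higher, a value carried by 1 adenoma, and Hpgd averaged 1.61-fold lower against normal crypts that varied widely. For adenoma against normal (the FP-high and FP-low means, weighted equally), 0.91% of the 23410 tested probe sets passed, 0.884% higher in adenoma and 0.0256% lower. At an unadjusted p under 0.05, 2 of the 9 genes (Ptger4 and Ptgs2) stood beside 10.6% of all probe sets. The median difference over the 9 genes was -0.10 on the log2 scale, beside -0.09 over all tested probe sets, and 3 of the 9 had a higher mean in adenoma, beside 38.1% of all.

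In FP-high against FP-low crypts 0 of the 9 genes and 0% of all tested probe sets passed limma's adjusted threshold, while 0 of the 9 and 12.7% of all were under an unadjusted p of 0.05. The median difference was 0.06 over the 9 genes and 0.05 over all probe sets. Against FP-low crypts alone, 0 of the 9 genes and 0.551% of all probe sets passed for adenoma, and 2 of the 9 were under an unadjusted 0.05 beside 7.45% of all. Against FP-high crypts alone, 0 of the 9 and 0.765% of all passed, and 1 of the 9 was under an unadjusted 0.05 beside 15.7% of all. The last 3 comparisons share arrays with the first.

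**Figure D1:**
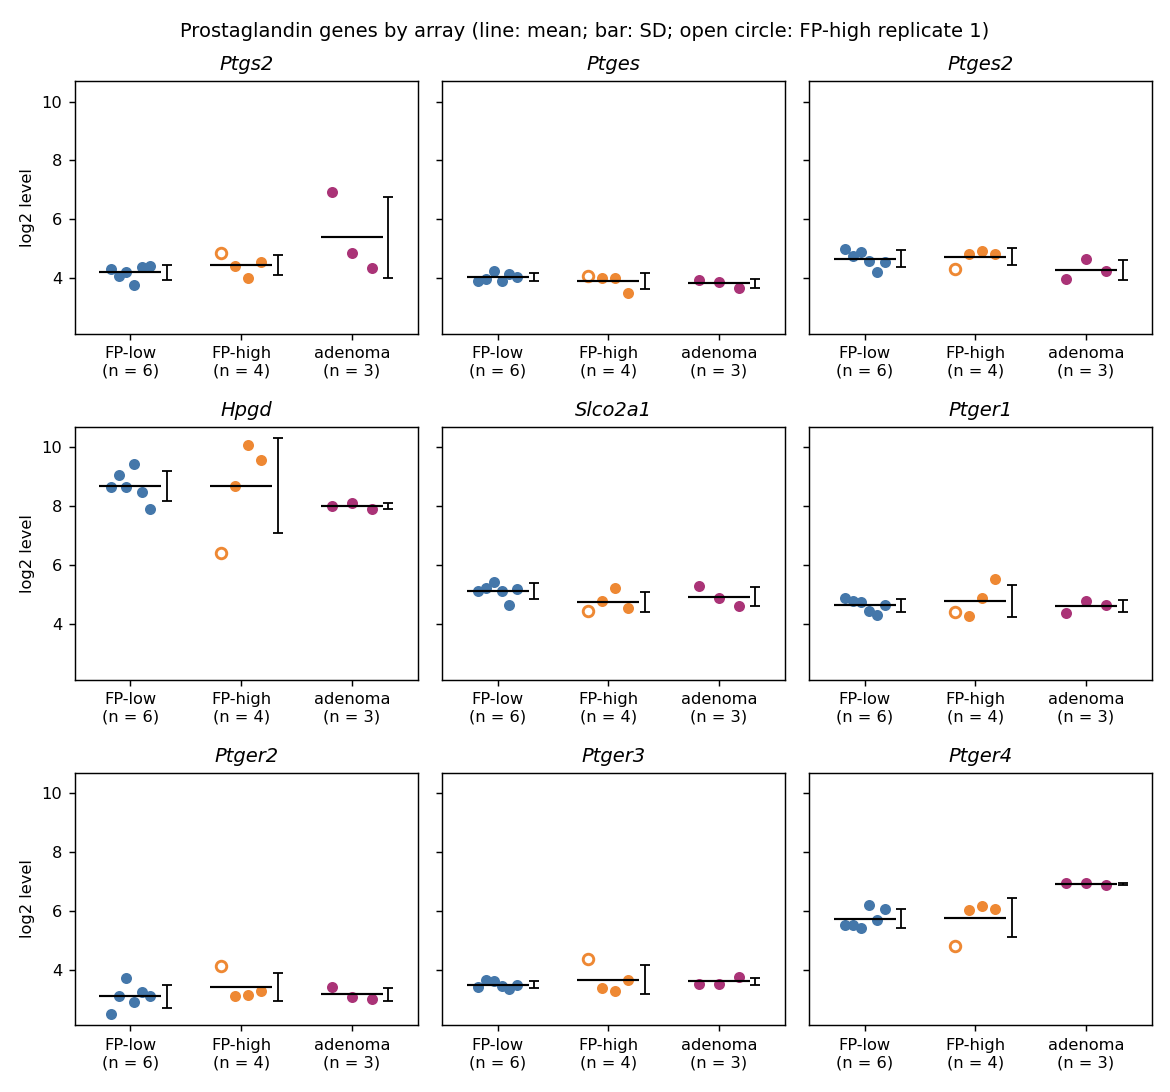
Log2 level of each of the 9 measured genes by array (vertical axes, log2) in FP-low (n = 6), FP-high (n = 4) and adenoma (n = 3) samples; points are arrays, lines are means, bars are SDs and the open circle is FP-high replicate 1. The 3 adenomas sit at 6.88 to 6.93 for Ptger4, above all normal arrays, while for Ptgs2 adenoma 1 alone stands at 6.94.

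Ptgs2, the inducible cyclooxygenase, read 6.94, 4.85 and 4.35 on the log2 scale in adenomas 1, 2 and 3. The FP-high arrays read 4.84, 4.39, 4.00 and 4.53, and the FP-low arrays ran from 3.76 through a median of 4.25 to 4.41. Adenoma 1 was far above every other array, adenoma 2 was just above the highest normal array, and adenoma 3 lay among the normal ones. In most arrays the gene was dim: its probe set was brighter than a median of 43.6% of tested probe sets within an array, but than 86.2% in adenoma 1. The mean was 5.38 ± 1.37 (SD, n = 3) in adenomas, 4.44 ± 0.35 (n = 4) in FP-high and 4.19 ± 0.24 (n = 6) in FP-low crypts. The difference between adenoma and normal was 1.06 (SE 0.40, 95% interval 0.20 to 1.93, limma adjusted p = 0.357). Without adenoma 1 it was 0.29 (adjusted p = 0.831) and without adenoma 3 it was 1.58 (adjusted p = 0.138). Between FP-high and FP-low crypts it was 0.25 (SE 0.39, interval -0.60 to 1.10, adjusted p = 0.730), and it ran from 0.12 when FP-high replicate 1 was left out to 0.40 when replicate 3 of that group was.

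Markers of other cells went both ways in adenoma 1. Its mean over 13 fibroblast and stroma markers was 5.18, against 4.93 and 4.64 in adenomas 2 and 3, 4.61 to 4.96 in FP-high and 4.49 to 4.76 in FP-low arrays. Of these 13 markers, 2 were above all normal arrays in adenoma 1 (Dcn at 7.62 and Sparc at 6.66) and 2 below them all (Col1a2 at 5.19 and Pdgfrb at 3.87). Without Dcn the mean was 4.97, below the 5.03 of FP-high replicate 1 but above the other normal arrays, which ran from 4.58 to 4.90. Its mean over 13 macrophage and neutrophil markers was 4.47, against 4.29 and 3.92 in adenomas 2 and 3 and 3.99 to 4.31 in the normal arrays. There 3 of the 13 were above all normal arrays (S100a8 at 5.30, S100a9 at 5.86 and Mrc1 at 3.90), and Lyz2, at 6.35, was below them all. Without S100a8 and S100a9 the mean of 4.26 lay inside the normal range of 4.13 to 4.42. That mean still held Lyz2, the brightest marker of the list, which read 6.78 to 10.43 in the normal arrays and so weighed on this comparison. The part of these cells in the Ptgs2 value was not tested. In samples of many cells, a change in the number of cells of a type and a change of RNA per cell cannot be told apart.

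Ptges, the prostaglandin E synthase that is induced together with Ptgs2 in inflammation, was below the array median in all 13 arrays. It read 3.93, 3.85 and 3.66 in adenomas, 4.08, 3.99, 3.99 and 3.50 in FP-high arrays and 3.88 to 4.25 in FP-low arrays with a median of 4.00. The groups overlapped, and the difference between adenoma and normal was -0.15 (SE 0.14, 95% interval -0.46 to 0.17, limma adjusted p = 0.675). Ptges2, a membrane-associated synthase, read 3.96, 4.64 and 4.25 in adenomas, 4.29, 4.83, 4.93 and 4.82 in FP-high arrays and 4.20 to 4.97 in FP-low arrays with a median of 4.66. Adenoma 1 lay below every normal array, adenoma 3 at the low end of their range and adenoma 2 inside it. The difference was -0.40 (SE 0.20, 95% interval -0.83 to 0.02, limma adjusted p = 0.498). Between FP-high and FP-low crypts the differences of the synthases were -0.14 (interval -0.44 to 0.17) for Ptges and 0.06 (interval -0.35 to 0.48) for Ptges2; without FP-high replicate 1 they were -0.20 and 0.20. Single arrays weighed on these values: without adenoma 1 the Ptges2 difference between adenoma and normal was -0.24, without adenoma 3 that of Ptges was -0.069, and without FP-high replicate 4 the Ptges difference between the normal groups was -0.0089.

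Hpgd, the enzyme that inactivates prostaglandin E2, was bright in every array, above 91.0% to 96.6% of the tested probe sets. The adenomas read 8.02, 8.11 and 7.91 on the log2 scale. The FP-high arrays read 6.42, 8.70, 10.07 and 9.58, and the FP-low arrays ran from 7.89 through a median of 8.66 to 9.42. The adenomas were close to each other near the floor of the normal range, where FP-high replicate 1 (6.42) and FP-low replicate 6 (7.89) were lower still. The FP-high arrays spread over more of the scale than any other group. The mean was 8.01 ± 0.10 (SD, n = 3) in adenomas, 8.69 ± 1.62 (n = 4) in FP-high and 8.69 ± 0.52 (n = 6) in FP-low crypts.

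The difference of Hpgd between adenoma and normal was -0.68 (SE 0.57, 95% interval -1.92 to 0.55, limma adjusted p = 0.644). Leaving out FP-high replicate 1 gave -1.06 (adjusted p = 0.118), and leaving out FP-high replicate 3 gave -0.45. Between FP-high and FP-low crypts it was -0.0013 (SE 0.56, adjusted p = 0.999). Once FP-high replicate 1 was left out it was 0.76 (adjusted p = 0.555), and without FP-high replicate 3 it was -0.46, so that Hpgd had no settled direction between the normal groups. Hpgd is known from the differentiated cells of the intestinal epithelium. The mean of 10 enterocyte markers was 10.71 in FP-high replicate 3, where Hpgd was highest, and 6.91 in FP-high replicate 1, where Hpgd was lowest. FP-high replicate 1 was also the lowest array for the epithelial markers, at 6.53. The other FP-high arrays did not keep this order. Replicate 2 had an enterocyte mean of 10.11 with Hpgd at 8.70, and replicate 4 had 8.56 with Hpgd at 9.58. FP-low replicate 6, the lowest FP-low array for Hpgd, had the lowest enterocyte mean of all arrays, 6.79. The adenomas had enterocyte means of 8.11, 8.42 and 8.10. FP-low replicate 3 had an enterocyte mean of 7.32 with Hpgd at 8.67, above every adenoma. The part of the enterocyte content in the Hpgd values was not tested.

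**Figure D2:**
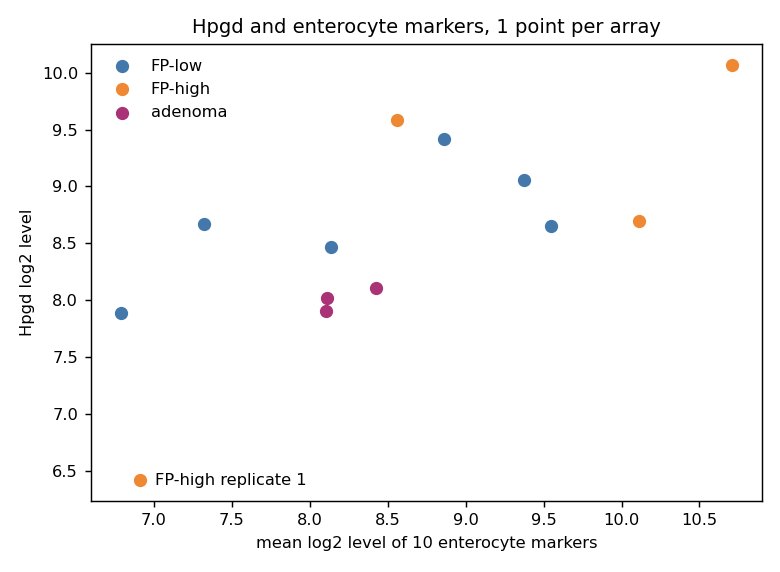
Log2 level of Hpgd (vertical axis) against the mean log2 level of 10 enterocyte markers (horizontal axis), 1 point per array, coloured by group. FP-high replicate 3 is at the upper right (10.71 and 10.07), FP-high replicate 1 at the lower left (6.91 and 6.42), and the 3 adenomas lie together between Hpgd levels of 7.91 and 8.11. FP-high replicate 2 is at 10.11 and 8.70, and FP-high replicate 4 at 8.56 and 9.58.

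Slco2a1, the prostaglandin carrier, read 5.27, 4.86 and 4.62 in adenomas, 4.45, 4.78, 5.22 and 4.54 in FP-high arrays and 4.63 to 5.43 in FP-low arrays with a median of 5.16. In FP-high crypts 3 of the 4 arrays lay below all FP-low arrays but replicate 5. The mean was 4.75 ± 0.34 (SD, n = 4) in FP-high and 5.11 ± 0.26 (n = 6) in FP-low crypts, a difference of -0.37 (SE 0.20, 95% interval -0.79 to 0.06, limma adjusted p = 0.401), or -0.27 without FP-high replicate 1. The difference between adenoma and normal was -0.01 (SE 0.20, interval -0.44 to 0.43, adjusted p = 0.987). Slco2a1 is also known from vascular endothelium, and the mean of 11 endothelial markers ran from 3.97 to 4.26 in FP-low, from 4.02 to 4.54 in FP-high and from 4.11 to 4.23 in adenoma arrays.

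Ptger4 encodes a receptor that raises cAMP when prostaglandin E2 binds. It read 6.93, 6.93 and 6.88 on the log2 scale in adenomas. The FP-high arrays read 4.79, 6.04, 6.17 and 6.07, and the FP-low arrays ran from 5.42 through a median of 5.61 to 6.19. No normal array reached an adenoma. Among all tested probe sets the adenomas did not overlap the normal arrays in 3.97%, and stood above them in 1.93%; they stood above the FP-low arrays in 3.67% and above the FP-high arrays in 6.74%. The mean was 6.91 ± 0.03 (SD, n = 3) in adenomas, 5.77 ± 0.65 (n = 4) in FP-high and 5.73 ± 0.32 (n = 6) in FP-low crypts.

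The difference of Ptger4 between adenoma and normal was 1.16 (SE 0.27, 95% interval 0.59 to 1.74, limma adjusted p = 0.0706). It was 1.18 (SE 0.28, adjusted p = 0.123) against FP-low and 1.15 (SE 0.31, adjusted p = 0.131) against FP-high crypts. Without FP-high replicate 1, the lowest array, the difference from FP-high crypts was 0.82 (limma adjusted p = 0.0728), that from normal was 1.00 with an adjusted p of 0.00822, and with arrays weighted by their quality it was 1.01 with an adjusted p of 0.00189, so 2 settings pass the threshold against normal that the fit of all 13 arrays missed. With the replicate number as a block it was 1.34 (adjusted p = 0.149). FP-high replicate 4 and FP-low replicate 6, the normal arrays high in Xist, both read 6.07; the part of sex in the Ptger4 values was not tested. Between FP-high and FP-low crypts the difference was 0.03 (SE 0.26, interval -0.53 to 0.59, adjusted p = 0.952), and 0.36 without FP-high replicate 1 (adjusted p = 0.588).

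For each of the other receptors the groups overlapped. Ptger1 read 4.38, 4.78 and 4.63 in adenomas, 4.41, 4.28, 4.89 and 5.51 in FP-high arrays and 4.30 to 4.88 in FP-low arrays with a median of 4.69. FP-high replicate 4 was the highest array. Ptger2, which like Ptger4 raises cAMP, read 3.39, 3.07 and 3.00 in adenomas, 4.11, 3.10, 3.14 and 3.27 in FP-high arrays and 2.49 to 3.70 in FP-low arrays with a median of 3.10. Ptger3 read 3.52, 3.51 and 3.75 in adenomas, 4.35, 3.38, 3.26 and 3.63 in FP-high arrays and 3.33 to 3.66 in FP-low arrays with a median of 3.46. FP-high replicate 1 was the highest of all arrays for both Ptger2 and Ptger3, and both genes lay below the array median in all 13 arrays. The differences between adenoma and normal were -0.10 (SE 0.23, 95% interval -0.60 to 0.39, limma adjusted p = 0.847) for Ptger1, -0.10 (SE 0.25, interval -0.64 to 0.45, adjusted p = 0.868) for Ptger2 and 0.02 (SE 0.19, interval -0.39 to 0.44, adjusted p = 0.962) for Ptger3. Between FP-high and FP-low crypts they were 0.15 (interval -0.34 to 0.63), 0.32 (interval -0.21 to 0.85) and 0.17 (interval -0.24 to 0.58). Without FP-high replicate 1 these became 0.27 for Ptger1, 0.083 for Ptger2 and -0.062 for Ptger3, so the Ptger2 and Ptger3 values rest on that array; without FP-high replicate 4 that of Ptger1 was -0.097, and without FP-low replicate 1 that of Ptger2 was 0.20. For adenoma against normal, leaving out FP-high replicate 1 gave -0.16, 0.021 and 0.14 for Ptger1, Ptger2 and Ptger3.

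**Figure D3:**
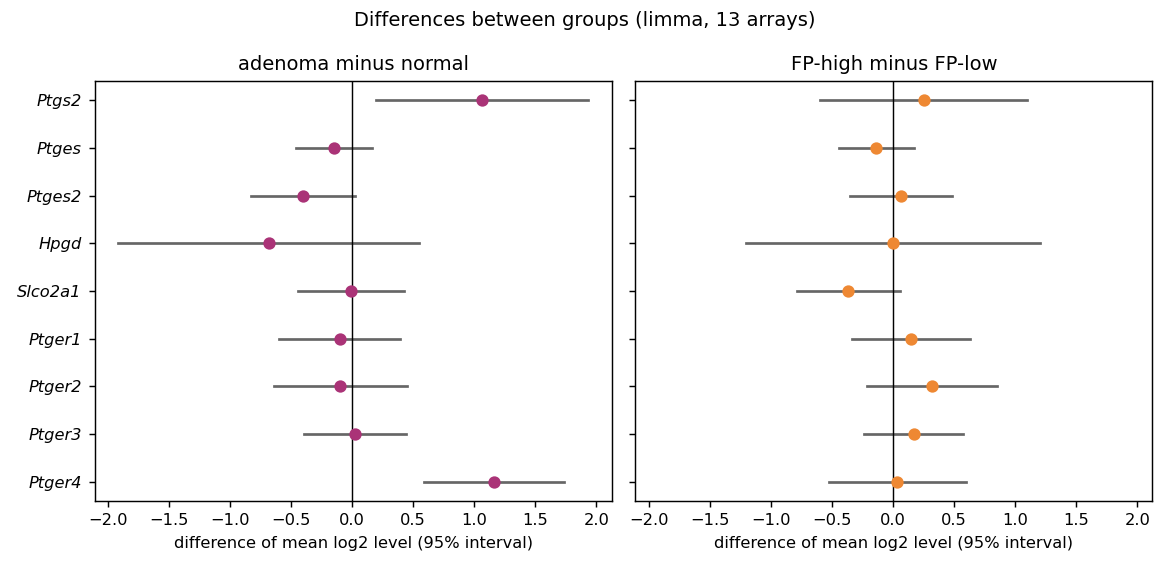
Differences of mean log2 level (horizontal axes) for the 9 genes with their 95% intervals from limma over 13 arrays, shown for the comparisons between groups. For adenoma against normal the intervals of Ptger4 (0.59 to 1.74) and Ptgs2 (0.20 to 1.93) lie above 0, before any adjustment over the tested probe sets, and that of Hpgd (-1.92 to 0.55) spans it.

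The rest of the pathway was read from 6 lists of related genes. These were chosen with earlier results of these data known, so the shares below are a description and no test of the pathway. Of their 86 measured genes, each counted once, 4 (4.65%) passed limma's adjusted threshold for adenoma against normal, beside 0.91% of all probe sets. They were Pparg, Tlr4 and Hif1a, which rose, and Fosb, which fell. None of the 86 passed for FP-high against FP-low crypts, and 2 (2.33%) passed against each normal group alone: Tlr4 and Fosb against FP-low, Pparg and Hif1a against FP-high.

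Upstream of the cyclooxygenases and beside the members, 20 of 22 other genes of prostanoid synthesis, breakdown and transport were measured. None passed, 5 were under an unadjusted p of 0.05 and 13 had a higher mean in adenoma, with a median difference of 0.14. Among all tested probe sets 38.1% had a higher mean. Against FP-low crypts alone 8 of the 20 were higher and the median was -0.03, while against FP-high crypts 12 were higher and it was 0.30. FP-high replicate 1 had the lowest mean over this list, 4.83, against 5.36 to 5.66 in the other arrays. Pla2g2a, a secreted phospholipase A2 that is known as a modifier of polyp number in Apc mutant mice, read 9.37, 7.59 and 7.84 in adenomas, 4.60, 7.54, 6.27 and 5.53 in FP-high arrays and 5.53 to 8.21 in FP-low arrays with a median of 6.42. Only FP-low replicate 2 lay above an adenoma, and the difference of 2.02 (SE 0.63) had a limma adjusted p of 0.236. The phospholipases Pla2g10 (0.77, adjusted p = 0.298) and Pla2g4c (0.54, adjusted p = 0.346) were next by p, the latter at 0.23 without adenoma 3. The other phospholipases of the list differed by -0.44 (Pla2g5), -0.17 (Pla2g6), -0.10 (Pla2g4f), 0.10 (Pla2g4a) and 0.46 (Pla2g12b). For FP-high against FP-low the smallest p belonged to Ptges3, the cytosolic prostaglandin E synthase and Hsp90 cochaperone, at -0.70 (adjusted p = 0.369), which was -0.33 without FP-high replicate 1 (adjusted p = 0.449).

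Among 8 other prostanoid and related receptors, 1 passed for adenoma against normal and 2 were under an unadjusted 0.05, with a median difference of -0.07. Pparg, a nuclear receptor that binds prostaglandin J2 derivatives and fatty acids, read 7.25, 6.66 and 6.70 in adenomas, 5.18, 6.01, 5.35 and 5.23 in FP-high arrays and 5.12 to 6.40 in FP-low arrays with a median of 5.74. All adenomas were above all normal arrays, and the difference was 1.28 (SE 0.25, limma adjusted p = 0.0311). The call of Pparg was lost with the replicate block (1.34, adjusted p = 0.182) and without FP-high replicate 3 or 4, FP-low replicate 1, 2 or 6, or any 1 adenoma (adjusted p 0.0514 to 0.250). Ptgir, the prostacyclin receptor, read 3.59, 3.56 and 3.57 in adenomas, below all 10 normal arrays (3.68 to 4.59), a difference of -0.47 with a limma adjusted p of 0.249.

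Of 12 measured genes of the lipoxygenase and leukotriene branch, which uses the same arachidonic acid, none passed and none was under an unadjusted 0.05. A higher mean in adenoma was seen for 1 of the 12, beside 38.1% of all tested probe sets, and the median difference was -0.17. Against FP-low crypts alone 3 of the 12 were higher and the median was -0.05, while against FP-high crypts it was -0.26. FP-high replicate 1 had the highest mean over this list, 4.37, against 3.96 to 4.27 in the other arrays. Alox5, which starts leukotriene synthesis, had the smallest p of this list between FP-high and FP-low crypts, at 0.31, and did not pass.

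Of 18 measured genes listed for cAMP signalling, the pathway of the receptors encoded by Ptger2 and Ptger4, none passed for adenoma against normal. Of these, 4 were under an unadjusted 0.05, and the median difference was 0.15. Against FP-low crypts alone the median was -0.03, with 8 of the 18 higher, and against FP-high crypts it was 0.25, with 10 higher. FP-high replicate 1 had the lowest mean over this list, 4.87, against 5.12 to 5.48 in the other arrays. The list also held Gnaq, which serves Ptger1, while its genes Gnas and Prkaca were not measured. Crem, a cAMP-responsive transcription factor, read 4.57, 4.65 and 4.45 in adenomas, above all FP-high arrays (3.85, 3.37, 3.65 and 3.80) and all FP-low arrays (2.86 to 3.95). Its difference was 0.93 (SE 0.21, limma adjusted p = 0.0664), and it passed with a trend and robust prior (0.0430), with array weights (0.00705), without FP-high replicate 1 (0.0367) and without FP-low replicate 5 (0.0334). Gnaq, the G protein subunit through which Ptger1 signals to calcium, read 7.32, 6.64 and 6.31 in adenomas, 5.50, 5.29, 5.78 and 6.04 in FP-high arrays and 5.81 to 6.50 in FP-low arrays, a difference of 0.91 (adjusted p = 0.0961).

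Of 16 measured genes known to respond to prostaglandin E2 or cAMP, 1 passed and it was lower; 4 had a higher mean in adenoma, and the median difference was -0.21. Fosb, an immediate early subunit of AP-1, read 4.83, 5.45 and 4.80 in adenomas, 5.73, 7.04, 6.55 and 5.76 in FP-high arrays and 6.13 to 7.79 in FP-low arrays with a median of 7.12. The adenomas were below all normal arrays, by 1.65 in the means (-1.65, SE 0.35, limma adjusted p = 0.0471). The call of Fosb lay close to the threshold and was lost with the block, with the trend and robust prior and with all probe sets tested (adjusted p 0.0501 to 0.0635), and without FP-high replicate 2 or 3, FP-low replicate 1, 2, 3, 4 or 5, or any 1 adenoma (0.0619 to 0.280). Myc, at 0.76 (0.56 without FP-high replicate 1), and Pck1, at -0.38, did not pass. Dusp1, an immediate early phosphatase, had the smallest p of this list between FP-high and FP-low crypts (-1.41, adjusted p = 0.206).

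Of 12 measured genes known to induce or regulate Ptgs2, 2 passed, 6 were under an unadjusted 0.05, 11 had a higher mean in adenoma and the median difference was 0.52. Hif1a, the oxygen-sensing transcription factor, read 9.51, 9.19 and 9.18 in adenomas, 4.60, 6.45, 7.66 and 7.17 in FP-high arrays and 6.76 to 7.82 in FP-low arrays with a median of 7.13. All adenomas were above all normal arrays, and the difference was 2.43 (SE 0.48, limma adjusted p = 0.0325), or 2.11 without FP-high replicate 1. The call of Hif1a was lost with the replicate block (adjusted p = 0.146) and without FP-high replicate 2, FP-low replicate 1, 2, 4 or 5, or any 1 adenoma (0.0560 to 0.201). Tlr4, the receptor for bacterial lipopolysaccharide, read 5.16, 3.93 and 4.44 in adenomas, 3.89, 2.84, 2.69 and 2.91 in FP-high arrays and 2.77 to 3.09 in FP-low arrays. It was highest in adenoma 1, as was Ptgs2, and its difference was 1.52 (SE 0.26, limma adjusted p = 0.0150). The call of Tlr4 was lost with the block (0.103), without adenoma 1 (1.19, 0.114) and without adenoma 3 (1.55, 0.0563). Il1b, an inflammatory cytokine, differed by 0.81 (adjusted p = 0.159).

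**Figure D4:**
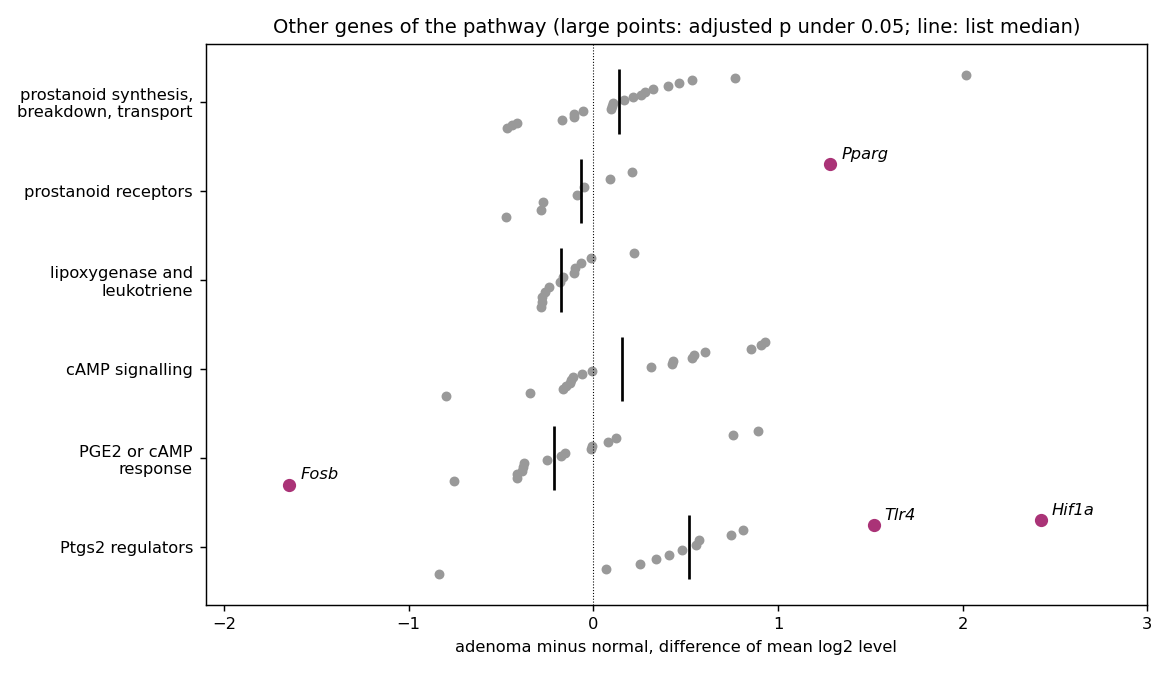
Difference of mean log2 level between adenoma and normal crypts (horizontal axis) for each measured gene of the 6 lists around the members; 1 point per gene, large points passed limma's adjusted p of 0.05 and the short line is the list's median. The regulators of Ptgs2 have the highest median (0.52) and the genes known to respond to prostaglandin E2 or cAMP the lowest (-0.21). The lists were chosen with earlier results of these data known.

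Markers of the cell types such samples could hold were read beside these genes. Of 13 fibroblast and stroma markers, 2 rose in adenoma against normal, Sparc (1.30, limma adjusted p = 0.0253) and Dcn (2.36, adjusted p = 0.0277), while 5 of the 13 had a higher mean. Dcn, a proteoglycan of connective tissue, read 7.62, 6.14 and 4.41 in adenomas 1, 2 and 3. The calls were lost with the block and without adenoma 1, and also without adenoma 3 for Sparc (0.0563 to 0.142), and without adenoma 2 or FP-low replicate 2 or 4 for Dcn (0.0508 to 0.168). Of 9 mast cell markers, Mcpt2 rose (3.77, limma adjusted p = 2.53e-05), while 3 of the 9 had a higher mean and the median difference was -0.17. Of 10 T cell and lymphocyte markers, Ptprc rose (0.79, limma adjusted p = 0.0393) while the other 9 had a lower mean. The call of Ptprc was lost with the block, with all probe sets tested, without any 1 adenoma and without 6 of the normal arrays (FP-high 2 and 4, FP-low 1, 2, 3 and 5), with adjusted p from 0.0560 to 0.301. No marker of epithelium, enterocytes, tuft cells, endothelium, macrophages and neutrophils or smooth muscle passed in this comparison, and none of any list passed between FP-high and FP-low crypts. Without FP-high replicate 1, the epithelial marker Krt18, the endothelial markers Emcn and Cdh5 and the macrophage marker Mrc1 passed as higher in adenoma. Lyz2, from the macrophage and neutrophil list, passed as lower (limma adjusted p 0.0140 to 0.0473 for these genes). In that setting 2.08% of all tested probe sets passed. Over all 13 arrays, 4 of 11 endothelial and 7 of 13 macrophage and neutrophil markers had a higher mean in adenoma. Lyz2 averaged 9.39 in FP-low crypts, where Csf1r averaged 3.42 and Adgre1 2.65, and the cells behind its level were not tested. The array scale has no zero, so the absence of a cell type cannot be read from it. The part of these cells in the values of Ptger4, Pparg, Tlr4 and Hif1a was not tested.

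For 4 of the members the genes with the most similar pattern over the 13 arrays were named by Spearman's rho, which is a description over arrays that share groups and cell content. For Ptgs2 they were Ank3 (0.94), Lrrk2 (0.92), Dcun1d2 (0.91) and Nav3 (0.91). For Hpgd they were Dctn1 (0.94), Rab17 (0.93), Zfp324 (0.92) and Slc25a11 (0.91). For Ptger4 they were Nek7 (0.94), Rasa2 (0.93), Xiap (0.93) and Adss (0.92). For Slco2a1 they were Tagln (0.92), Nmt1 (0.91), Pdgfra (0.89) and Map2k4 (0.88). Tagln is a smooth muscle marker and Pdgfra a stromal one in the lists used above. Like Slco2a1, both averaged lower in FP-high than in FP-low crypts. Most of their lists went the other way: 5 of 6 smooth muscle and 10 of 13 stromal markers averaged higher in FP-high crypts. Among the members themselves Hpgd ran with Ptges2 (rho 0.64) and opposite to Ptgs2 (-0.60), and Ptger4 ran opposite to Ptges (-0.62).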

How the data were processed

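Per the labels' protocols, RNA of isolated crypts was amplified and hybridised to 1 array per sample. The authors deposited log2 levels of 35556 probe sets, made with Affymetrix software per the design text and the submitters' processing notes (Expression Console and Transcriptome Analysis Console); their versions, the background correction and the normalization are not stated there. That the scale is log2 follows from the range of values. Amplification from little RNA can distort levels, and precision is limited by how few arrays there are. Names come from the platform annotation, and the 23410 probe sets with a gene symbol were tested.

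Comparisons of group means were fitted in R (version 4.3.3) with limma (version 3.58.1): lmFit, then eBayes, two-sided, on all 13 arrays without covariates. The Benjamini-Hochberg adjustment covered all 23410 probe sets, with 0.05 as the threshold. The procedure was tested on simulated data. Every member was named; of each list, the genes that passed or else those with the smallest p; and the 4 genes most like Ptgs2, Hpgd, Ptger4 and Slco2a1. The members and lists were chosen with earlier results of these data known. Deviations from the group means in FP-high and adenoma arrays of the same number correlated at 0.233, 0.102 and 0.220, all over the bound of 0.1. A block was therefore fitted too. The value of 0.233 belonged to the pair with FP-high replicate 1. Arrays of different numbers were not correlated for comparison, so these values do not show a pairing. For FP-low arrays the correlations ran from -0.361 to 0.178. Since no label ties arrays to animals, p-values measure only the spread between samples, which may be technical. Alternatives were quantile normalization, array weights, the replicate block, a trend and robust prior, dim probe sets left out, all probe sets, only the compared groups, and leaving out each array.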

Additional observations from a re-analysis of the deposited data

Results flagged for a closer look

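In 3 of the 18 groups tested (9 genes in FP-high and in FP-low crypts) 1 array lay far from the rest by Dixon's criterion; chance alone gives about 1 in 20. Ptger4 read 4.79 on the log2 scale in FP-high replicate 1, against 6.04 to 6.17 in the other FP-high arrays. Ptger2 read 4.11 in the same array, against 3.10 to 3.27. Ptges read 3.50 in FP-high replicate 4, against 3.99 to 4.08. Groups of 3 adenomas are too small for this criterion.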

How the results depend on the processing

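Over 691 values of the members' 36 differences under other settings, 642 kept their direction and their side of the threshold, 6 passed anew and 43 turned sign, all of them from differences of at most 0.18 in size and with adjusted p of at least 0.498. Ptger4 was the gene behind each count of 1 member instead of 0: with array weights (adjusted p 0.00189 against normal, 0.000901 against FP-low, 0.0343 against FP-high), with only the compared groups in the fit (0.0115 against FP-low) and without FP-high replicate 1 (0.00822 against normal, 0.00390 against FP-low). Leaving out 1 array gave 0 to 1 members against normal and against FP-low. The pathway lists gave 4 genes against normal, 10 with array weights, 0 with the replicate block and 0 to 5 without 1 array. Over all probe sets, 213 passed against normal, 1153 with array weights (692 higher, 461 lower), 67 with the block and 92 to 488 without 1 array; between FP-high and FP-low 0 passed, 4 after quantile normalization, 3 with array weights and 0 to 136 without 1 array.

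Signs turned as follows. FP-high minus FP-low: Ptges2 -0.0074, Hpgd 0.61 and, outside the members, Atf1 0.22 (quantile); Hpgd 0.50 and Ptger3 -0.067 (array weights); Ptges2 -0.081 (replicate block). Adenoma minus normal: Slco2a1 0.032 (quantile), Ptger2 0.024 (array weights), Ptger3 -0.017 (block). Adenoma minus FP-low: Ptger1 0.0046 (array weights). Adenoma minus FP-high: Ptges 0.072 and Ptger3 0.050 (quantile), Ptger3 0.17 (array weights). The cause was not tested.

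Without 1 array, FP-high minus FP-low ran from -0.028 to 0.20 for Ptges2, -0.46 to 0.76 for Hpgd, -0.10 to 0.31 for Ptger1, -0.062 to 0.30 for Ptger3 and -0.10 to 0.36 for Ptger4. Adenoma minus normal ran from -0.19 to 0.021 for Ptger1, -0.21 to 0.021 for Ptger2, -0.055 to 0.14 for Ptger3 and -0.19 to 0.14 for Slco2a1. Adenoma minus FP-low ran from -0.12 to 0.081 for Ptger1 and -0.057 to 0.19 for Ptger2. Adenoma minus FP-high ran from -0.34 to 0.070 for Ptger1, -0.19 to 0.17 for Ptger3 and -0.0027 to 0.33 for Slco2a1. With the replicate block no call of a member changed. The mean over probe sets was not run, since each member has 1. Among the members, 4 lie above the median level of all probe sets, and only these were read when dim ones were left out.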
